A study of Mus musculus with 6 samples.

Results

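The genes that copy DNA were examined in sinusoidal endothelial cells (SECs) of fibrotic mouse livers with and without endothelial RBPj. The set was a list of 39 genes chosen by name for their role in origin licensing, the replication fork or nucleotide supply, and these were 39 of the 41799 rows of the deposited gene table. The rule names genes and uses no measured value, but the list was drawn up with earlier results of these data known, so its counts are descriptions. SECs were profiled by bulk RNA sequencing in 3 RBPj knock-out libraries and 3 control libraries, all from CCl4-treated livers. RBPj is the DNA-binding protein through which Notch receptors act on transcription. Mice of both groups were males and, per the labels, received tamoxifen from 4 to 6 weeks of age (2 mg per 20 g of body weight, once a day for 7 days), which induces the endothelial deletion. After 1 week of rest they were given CCl4 (0.6 μl per g, 15% in olive oil) 2 times a week for 6 weeks, and were 12 to 14 weeks old. The strain is labelled C57BL/6 in knock-out 1 and in all 3 controls, C57BL/7 in knock-out 2 and C57BL/8 in knock-out 3. The promoter that drives the recombinase, the genotype of the controls and whether replicates came from separate mice are not stated, so p-values measure the spread between these libraries.

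DNA replication starts at origins, which the origin recognition complex marks and which Cdc6 and Cdt1 license by loading the MCM2-7 helicase as an inactive ring. The GINS complex, Cdc45 and Mcm10 turn the loaded ring into a moving helicase, polymerases alpha, delta and epsilon then copy the strands, and the PCNA clamp, its RFC loader, a flap nuclease and DNA ligase I finish them. Many of these genes are transcribed as cells enter S phase, and E2F transcription factors are known regulators of them. SECs line the hepatic sinusoid, and in the healthy adult liver they divide rarely.

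Total counts were 10503026 to 12326770 in the knock-out libraries and 10372195 to 11268228 in the control libraries, and 3 counts corresponded to 0.232 to 0.319 CPM (counts scaled to normalized library size), depending on the library. Ribosomal RNA rows held 1.48%, 3.87% and 2.21% of the counts in knock-out 1, 2 and 3, and 5.42%, 0.991% and 6.89% in control 1, 2 and 3. Rbpj itself had 128, 99 and 154 counts in knock-out 1, 2 and 3, against 174, 172 and 173 counts in control 1, 2 and 3. The knock-outs lay under all controls (log2 fold change -0.64 ± 0.19, SE, adjusted p = 0.187 by edgeR), which did not pass the test. Counts cover the whole gene, and the labels do not say which exons were deleted. The 14 sinusoidal endothelial markers were at a summed 23970, 29340 and 24840 CPM in the knock-outs and 22420, 22730 and 15880 CPM in the controls, and all 14 were detected.

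Levels of the replication genes were higher in the knock-out libraries than in the controls across nearly the whole list, although no gene passed the test. Of the 39 members, 38 passed the filter on low counts, and the remaining one, Cdc45, was at 0 counts in all 6 libraries. By the quasi-likelihood test of edgeR, 0 of the 38 were called higher and 0 lower at an adjusted p under 0.05, against 0.104% of 15404 tested genes called higher and 0.0909% called lower. Adjusted p-values ran from 0.0733 (Orc1) to 0.992 (Gins4). At an unadjusted p under 0.05, 28 of the 38 were higher and 0 lower, against 9.39% and 8.13% of all tested genes. All 38 had a log2 fold change above 0, against 46.2% of tested genes, though Orc2 and Gins4 were at 0.00 and Orc2 was just below 0 by DESeq2 and limma-voom. Their median was 0.85 against -0.03 over all tested genes. In 27 of the 38 every knock-out library lay above every control, which held for 13.2% of tested genes, and 11 overlapped. In 0 of the 38 did the knock-outs all lie under the controls, which held for 11.7% of tested genes. DESeq2 called 17 of the 38 higher, against 3.61% of genes with an adjusted p, and limma-voom called 1 (Orc1, adjusted p = 0.0293), against 1.89% of tested genes. The 17 were Mcm2, Mcm4, Mcm5, Mcm6, Mcm7, Orc1, Cdc6, Cdt1, Gins2, Pola1, Pole, Rpa2, Lig1, Rrm2, Tyms, Tk1 and Uhrf1.

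The fold differences were graded. Knock-out levels were at least 2 times control levels in 14 members, 1.5 to 2 times in 14 and under 1.5 times in 10, of which 3 (Orc2, Gins4 and Rfc1) were under 1.1 times. Libraries of the same group also differed. The median log2 level of the 38 genes, set against the 6-library mean of each gene, was 0.03, 0.60 and 0.61 in knock-out 1, 2 and 3, and -0.34, -0.14 and -0.76 in control 1, 2 and 3. Knock-out 1 was the lowest knock-out library for 35 of the 38 genes, and control 3 was the lowest control for 35 and control 2 the highest for 30. The nearest libraries of the groups were thus knock-out 1 and control 2, between which the median log2 difference was 0.14 and 28 of the 38 genes were higher in knock-out 1. Between knock-out 2 and control 3 the median difference was 1.33, and all 38 genes were higher in knock-out 2. Knock-out 2 stood 0.55 above knock-out 1 by the same measure.

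**Figure D1:**
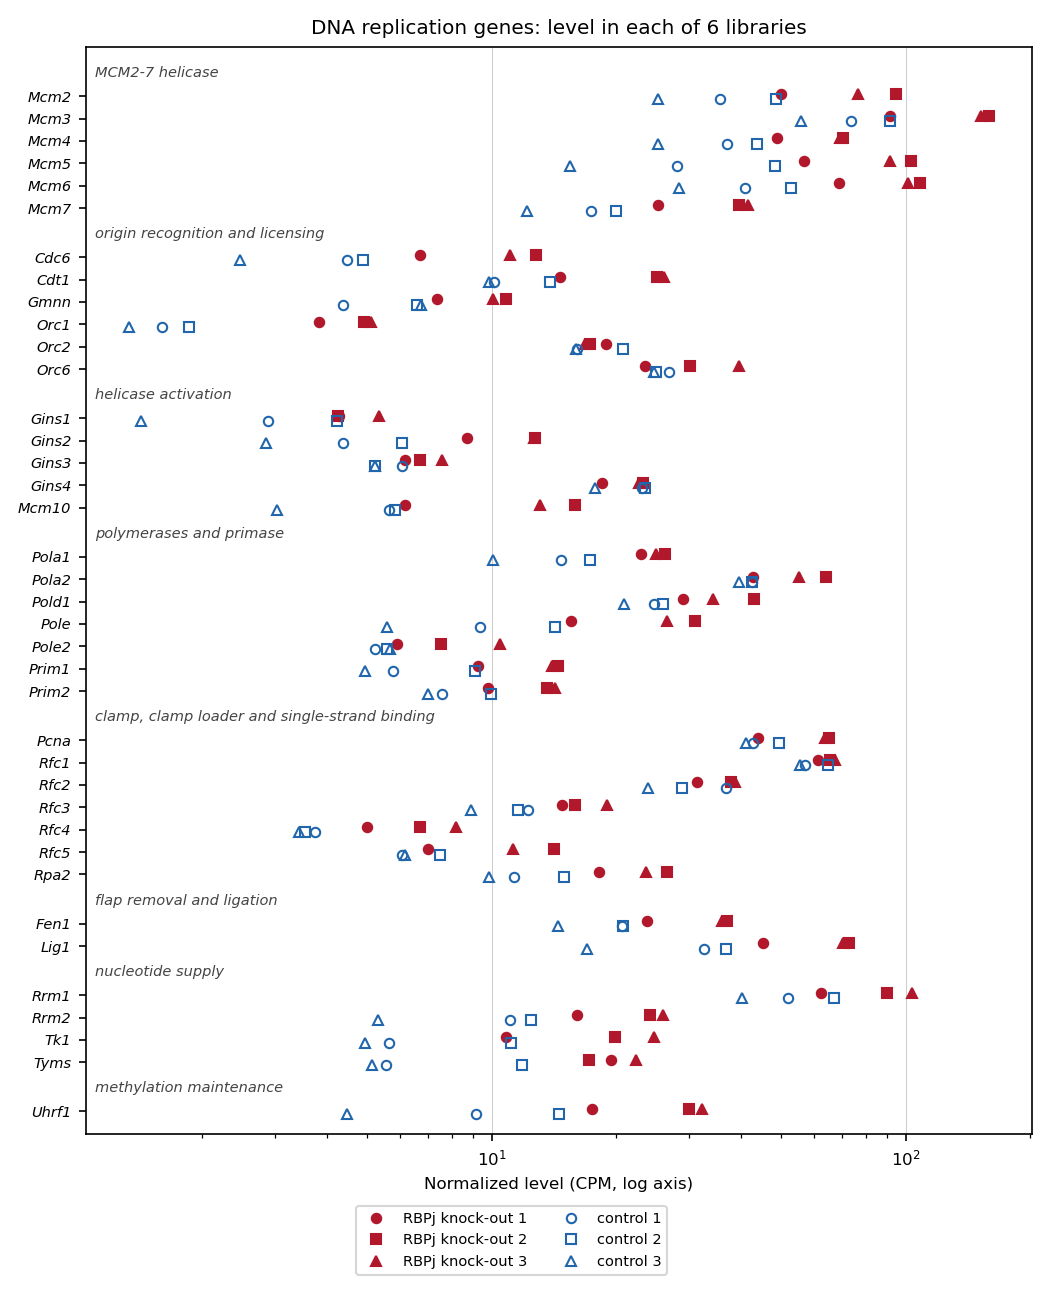
Normalized level of the 38 tested DNA replication genes in each library, in CPM on a log axis, by role (filled red symbols, RBPj knock-out 1 to 3; open blue symbols, control 1 to 3). In 27 genes every red symbol lies right of every blue one, and knock-out 1 (circle) is the lowest red symbol in 35.

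**Figure D2:**
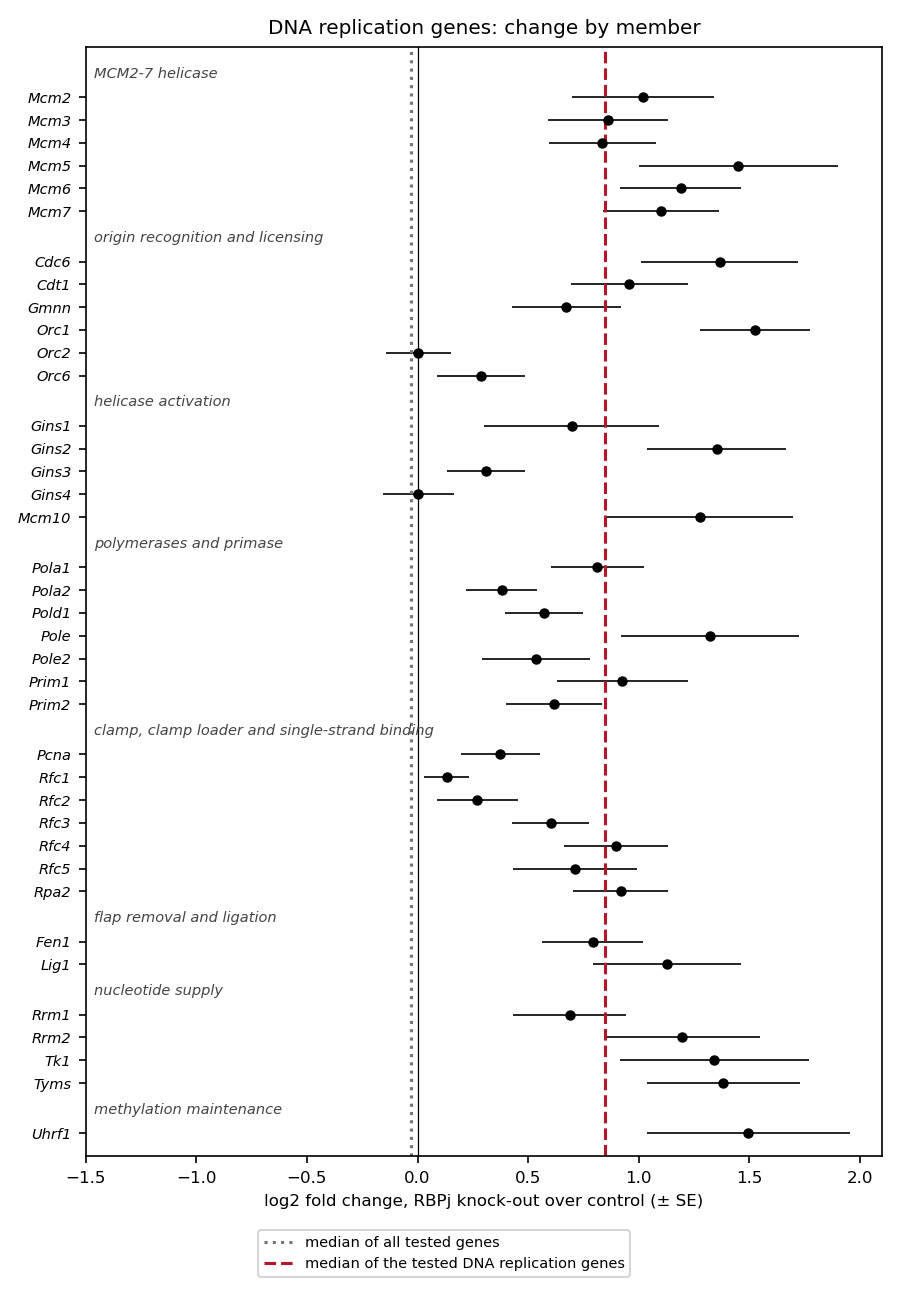
Log2 fold change of each tested gene, RBPj knock-out over control, with its SE from the edgeR fit (n = 3 libraries per group). Every point lies above 0 (Orc2 and Gins4 at 0.00, Orc2 below 0 by DESeq2 and limma-voom), the median of the genes is 0.85 (dashed red line), and the median of all tested genes is -0.03 (dotted line).

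The 6 subunits of the MCM2-7 helicase, the ring that unwinds DNA at the fork, were higher in knock-out SECs by a log2 fold change of 0.84 (Mcm4) to 1.45 (Mcm5), with a median of 1.06. All 6 had an unadjusted p under 0.05 by edgeR, against 9.39% of all tested genes higher at that p, and adjusted p-values ran from 0.133 (Mcm6) to 0.206 (Mcm2). Mcm5 was at 56.7, 103 and 91.8 CPM in knock-out 1, 2 and 3, against 27.9, 48.4 and 15.5 CPM in control 1, 2 and 3. All knock-out libraries lay above all controls, and control 3 was far below the other controls. Its log2 fold change was 1.45 ± 0.45 (SE, adjusted p = 0.203, edgeR). Mcm3, the most abundant subunit, was at 91.7, 159 and 152 CPM in the knock-outs and 73.8, 91.8 and 56.0 CPM in the controls. Knock-out 1 was level with control 2 there, so the groups overlapped. Mcm4, with the smallest difference of the 6, was at 49.0, 70.5 and 69.3 CPM in the knock-outs, against 37.0, 43.6 and 25.1 CPM in the controls, with no overlap.

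Per kilobase of transcript the subunits were unequal in both groups. In RPKM, Mcm3 averaged 46.6 ± 12.9 in knock-out SECs and 25.6 ± 6.21 in control SECs (SD, n = 3 each), Mcm6 averaged 32.0 ± 7.25 and 14.0 ± 4.22, and Mcm7 was the lowest at 13.6 ± 3.41 and 6.31 ± 1.52. Mcm5, Mcm2 and Mcm4 lay between, at 24.4 ± 7.01, 21.9 ± 6.69 and 17.5 ± 3.37 RPKM in the knock-outs and at 8.90 ± 4.84, 10.8 ± 3.49 and 9.82 ± 2.61 RPKM in the controls. The means of these 3 differed by less than the SD of Mcm5 in both groups. That SD is spread between libraries, however, and the subunits were measured in the same libraries. In every knock-out library the order was Mcm5, Mcm2, Mcm4. In every control Mcm2 was the highest of the 3, though only narrowly above Mcm5 in control 2 (14.4 against 14.1 RPKM). Mcm7 has a near copy, Gm5487, whose counts came to 52.9% of those of Mcm7, so its own level is uncertain. Added together, both rows gave a log2 fold change of 1.13, against 1.10 for Mcm7 alone.

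**Figure D3:**
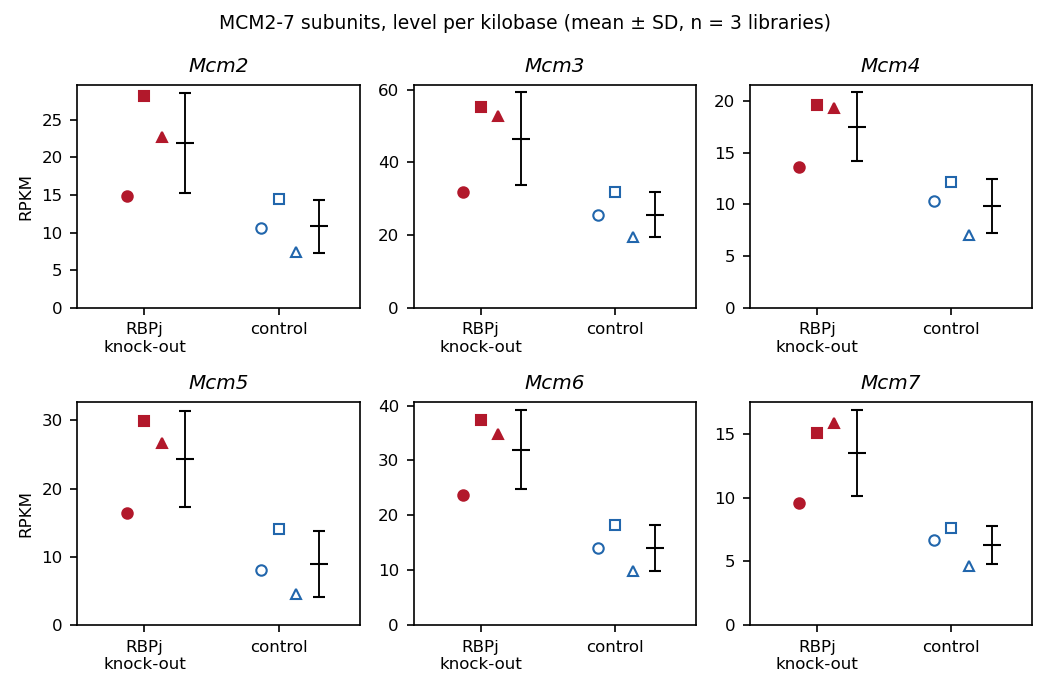
Level per kilobase (RPKM) of the 6 MCM2-7 subunits in each library, with RBPj knock-out left and control right, and the mean ± SD of 3 libraries as a black bar. Mcm3 reaches 55.1 RPKM in knock-out 2 and Mcm7 stays at or under 15.9 RPKM.

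Among the genes of origin recognition and licensing the differences were split. Orc1, the largest subunit of the origin recognition complex, had the largest log2 fold change of all 38 genes. It was at 3.82, 4.91 and 5.11 CPM in knock-out 1, 2 and 3, against 1.60, 1.86 and 1.33 CPM in control 1, 2 and 3, a log2 fold change of 1.52 ± 0.25 (SE, adjusted p = 0.0733, edgeR). The groups were well apart, but the gene is scarce, with 219 counts in all 6 libraries, and it overlaps Prpf38a on the opposite strand (1271 counts). Orc2, a core subunit, was at 18.9, 17.3 and 16.8 CPM in the knock-outs and 16.1, 20.8 and 15.9 CPM in the controls. Its libraries overlapped throughout, with a log2 fold change of 0.00 ± 0.15. Orc6, another subunit, was at 23.4, 30.1 and 39.5 CPM in the knock-outs, against 26.8, 24.9 and 24.7 CPM in the controls, and knock-out 1 lay below every control. The loading factors Cdc6 and Cdt1 were higher in every knock-out library than in every control, by 1.37 ± 0.35 and 0.96 ± 0.27 on the log2 scale (SE, adjusted p = 0.153 and 0.167, edgeR). Gmnn (geminin, an inhibitor of Cdt1) was higher by 0.67 ± 0.25, also without overlap.

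Promoter sequence was examined because many of these genes are known E2F targets. RefSeq (GRCm38.p6) gave windows of 250 bases before to 50 after a start for 31 of the 39 members, 37 windows in all. The letters searched on both strands were TTTCCCGC, TTTCGCGC, TTTGGCGC and TTTGCCGC, 8-base forms of the E2F site, and matches may share bases. At least 1 stood in 14 of the 37 windows (37.8%), against 3.57% of the 13327 windows of tested genes and 2.26% of all 32851 windows. CCAAT stood in 62.2% of the member windows against 36.8% of the windows of tested genes, and TTTGAA, the core of the cell-cycle homology region, in 10.8% against 12.5%. Members with a match had a median log2 fold change of 1.03 (14 genes, 0.31 to 1.52), and the tested members with a window but no match had a median of 0.84 (16 genes, 0.00 to 1.38), so the ranges overlapped. The 8 members without a window were left out of this. Below are the 250 bases before the start of Mcm6 (chr1:128359706-128359955, minus strand), Mcm5 (chr8:75109259-75109508, plus strand) and Orc1 (chr4:108579204-108579453, plus strand), which hold matches, then of Tyms (chr5:30073626-30073875, minus strand), a gene of like difference without a match, and of Orc2 (chr1:58505110-58505359, minus strand), whose level hardly differed. Capitals mark the E2F-type letters, and the Orc1 window lies within the span the deposited table gives to that gene.
Mcm6: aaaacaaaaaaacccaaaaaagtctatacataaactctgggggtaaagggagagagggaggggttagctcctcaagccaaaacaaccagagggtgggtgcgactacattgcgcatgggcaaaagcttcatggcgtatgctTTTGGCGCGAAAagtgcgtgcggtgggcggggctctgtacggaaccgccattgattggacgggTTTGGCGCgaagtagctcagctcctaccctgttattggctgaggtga
Mcm5: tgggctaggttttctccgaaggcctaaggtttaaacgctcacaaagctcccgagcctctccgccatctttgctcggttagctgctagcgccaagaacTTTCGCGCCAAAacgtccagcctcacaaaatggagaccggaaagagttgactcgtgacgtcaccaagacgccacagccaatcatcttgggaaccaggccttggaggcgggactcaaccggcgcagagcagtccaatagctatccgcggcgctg
Orc1: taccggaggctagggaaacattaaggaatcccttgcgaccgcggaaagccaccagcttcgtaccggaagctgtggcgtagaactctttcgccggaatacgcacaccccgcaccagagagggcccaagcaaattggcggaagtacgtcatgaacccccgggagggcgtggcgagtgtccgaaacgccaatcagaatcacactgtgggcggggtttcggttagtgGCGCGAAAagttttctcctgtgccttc
Tyms: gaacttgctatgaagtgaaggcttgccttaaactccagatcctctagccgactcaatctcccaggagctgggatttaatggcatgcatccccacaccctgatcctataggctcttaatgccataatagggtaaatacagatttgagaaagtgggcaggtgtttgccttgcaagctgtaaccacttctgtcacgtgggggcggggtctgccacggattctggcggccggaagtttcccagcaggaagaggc
Orc2: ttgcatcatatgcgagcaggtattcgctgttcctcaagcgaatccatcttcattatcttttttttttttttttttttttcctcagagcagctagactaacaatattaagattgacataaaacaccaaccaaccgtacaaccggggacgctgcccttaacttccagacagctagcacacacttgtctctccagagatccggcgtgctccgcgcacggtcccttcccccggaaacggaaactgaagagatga
In Mcm6 and in Mcm5 a pair of matches ran into each other, Mcm6 had another nearer its start, and Orc1 had a single match close to its start. A match is a description of letters and shows no binding.

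Of the factors that activate the helicase, Gins2 and Mcm10 differed most. Gins2, a subunit of the GINS complex that joins the MCM ring, was at 8.73, 12.7 and 12.6 CPM in the knock-outs, against 4.37, 6.08 and 2.85 CPM in the controls, with no overlap and a log2 fold change of 1.35 ± 0.32 (SE, adjusted p = 0.133, edgeR). Mcm10 was higher by 1.28 ± 0.42, Gins1 by 0.70 ± 0.40 and Gins3 by 0.31 ± 0.18, all without overlap. The nearest libraries were almost level for Gins1 (4.26 CPM in knock-out 2, 4.22 CPM in control 2). The same held for Gins3 (6.18 CPM in knock-out 1, 6.08 CPM in control 1). Gins4, another subunit of the same complex, was at 18.4, 23.2 and 22.7 CPM in the knock-outs and 23.0, 23.5 and 17.7 CPM in the controls. Its log2 fold change was 0.00 ± 0.16, and the libraries of both groups lay among each other. Counts of Gins2 share their locus with Gse1 on the opposite strand (5214 counts against 557), and the sources used here do not say whether counting used strand.

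Cdc45, the third part of the active helicase, had 0 counts in all libraries, so no difference could be measured. The table places its row on an alternate scaffold, whereas RefSeq places the gene on chr16:18780447-18811972 (GRCm38.p6). Of 576 coding rows on scaffolds, 384 (66.7%) were at 0 in all libraries, against 4644 of 21399 coding rows on chromosomes (21.7%). Its 0 counts were therefore not read as absence of its RNA, and whether reads could be assigned to this row was not tested.

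The 7 genes of the polymerases and primase were all higher in the knock-outs, with a median log2 fold change of 0.62. In 6 of them all knock-outs lay above all controls, which held for 13.2% of all tested genes. Pole, the catalytic subunit of polymerase epsilon on the leading strand, was at 15.5, 30.9 and 26.6 CPM in knock-out 1, 2 and 3, against 9.38, 14.2 and 5.60 CPM in control 1, 2 and 3. Its log2 fold change was 1.32 ± 0.40 (SE, adjusted p = 0.194, edgeR), and knock-out 1 stood just above control 2. Pola2, a subunit of the polymerase alpha and primase complex that starts each strand, had the smallest difference of the 7. It was at 42.7, 64.2 and 55.2 CPM in the knock-outs and 42.6, 42.5 and 39.5 CPM in the controls, so that knock-out 1 was nearly level with control 1. Pola1, the catalytic subunit of that complex, was higher by 0.81 ± 0.21, and its primase subunits Prim1 and Prim2 by 0.93 ± 0.30 and 0.62 ± 0.22. Prim2 overlapped between groups. Pold1, the catalytic subunit of polymerase delta, was higher by 0.57 ± 0.18 and Pole2 by 0.54 ± 0.24.

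Genes of the sliding clamp, its loader and single-strand binding had a median log2 fold change of 0.60, close to that of the polymerases and primase (0.62). In 3 of the 7 all knock-outs lay above all controls, against 13.2% of all tested genes, and 4 overlapped. Pcna, the clamp that holds polymerases on DNA, was at 43.9, 65.2 and 63.9 CPM in the knock-outs, against 42.8, 49.5 and 41.2 CPM in the controls. Knock-out 1 lay below control 2, and the log2 fold change was 0.37 ± 0.18. The counts of its near copy Pcna-ps2 came to 35.7% of those of Pcna, and the log2 fold change was 0.48 with both added. Rfc1, the large subunit of the loader, was nearly flat at 61.4, 65.6 and 67.6 CPM in the knock-outs and 57.2, 65.1 and 55.4 CPM in the controls. The small subunits Rfc2, Rfc3, Rfc4 and Rfc5 were higher by 0.27 ± 0.18, 0.60 ± 0.18, 0.90 ± 0.24 and 0.71 ± 0.28. Rfc3 and Rfc4 did not overlap, and Rfc2 and Rfc5 did. Rpa2, which coats single-stranded DNA, was at 18.2, 26.5 and 23.6 CPM in the knock-outs, against 11.3, 14.9 and 9.87 CPM in the controls, all knock-outs being higher (0.92 ± 0.22, SE, adjusted p = 0.133, edgeR).

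Both genes that finish the lagging strand were higher in every knock-out library than in every control, which held for 13.2% of all tested genes. Lig1, the ligase that seals the fragments, was at 45.1, 73.0 and 70.5 CPM in knock-out 1, 2 and 3, against 32.5, 36.8 and 17.0 CPM in control 1, 2 and 3 (1.13 ± 0.33, SE, adjusted p = 0.186, edgeR). Fen1, the flap nuclease, was at 23.7, 36.9 and 36.0 CPM in the knock-outs and 20.7, 20.8 and 14.4 CPM in the controls. In both genes knock-out 1 was nearest to the controls.

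The 4 nucleotide supply genes had a median log2 fold change of 1.27, the highest of the role groups with more than 2 genes. This did not extend to the 10 further nucleotide supply genes read with the wider pathway. Their median was 0.30, with 6 above 0 and 4 below. Tyms (thymidylate synthase) was at 19.4, 17.2 and 22.3 CPM in the knock-outs, against 5.55, 11.8 and 5.12 CPM in the controls. It was 1 of only 3 genes whose lowest knock-out library was not knock-out 1, its groups did not overlap, and its log2 fold change was 1.38 ± 0.35 (SE, adjusted p = 0.148, edgeR). Rrm1, the large subunit of ribonucleotide reductase, was at 62.5, 90.0 and 104 CPM in the knock-outs, against 51.9, 67.0 and 40.2 CPM in the controls, and overlapped. Its small subunit Rrm2 was higher by 1.20 ± 0.35 without overlap. Tk1 (thymidine kinase 1, of the salvage route) was higher by 1.34 ± 0.43, with knock-out 1 just below control 2. Near copies held 18.2% of the counts of Tyms and 36.7% of those of Tk1, and with them added the log2 fold changes were 1.36 and 1.26.

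Uhrf1, which brings the maintenance methyltransferase to newly copied DNA, was at 17.4, 30.0 and 32.2 CPM in knock-out 1, 2 and 3, against 9.17, 14.5 and 4.46 CPM in control 1, 2 and 3. The groups did not overlap, and the log2 fold change was 1.50 ± 0.46 (SE, adjusted p = 0.199, edgeR). Control 3 was lowest by a wide margin.

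**Figure D4:**
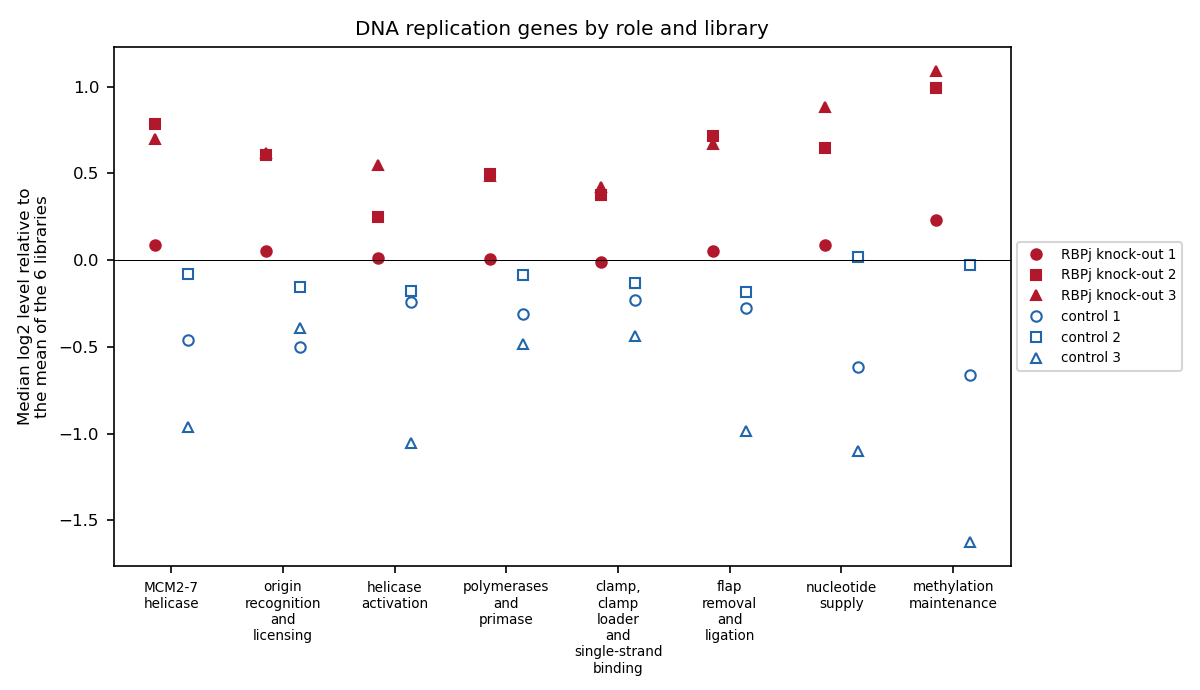
Median log2 level of each role group in each library, relative to the mean of the 6 libraries (filled red, RBPj knock-out 1 to 3; open blue, control 1 to 3). Knock-out 2 and knock-out 3 are highest in all 8 groups, knock-out 1 lies near 0, and control 3 lies lowest in most.

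The wider pathway was read from 5 further lists with 83 genes, of which 82 were tested. By edgeR 0 were called higher and 0 lower, and 35 were higher and 1 lower at an unadjusted p under 0.05 (9.39% and 8.13% of all tested genes). In 38 the knock-outs all lay above the controls and in 4 all below (13.2% and 11.7% of tested genes), and DESeq2 called 18 higher and 1 lower (3.61% and 2.7% of genes with an adjusted p). The median log2 fold change was 0.45, with 67 genes above 0 and 15 below. By list it was 0.78 for chromatin assembly and methylation (9 genes), 0.54 for other fork proteins (22 tested), 0.52 for origin licensing and firing (14 genes), 0.30 for nucleotide supply (10 genes) and 0.23 for E2F, RB and S-phase cyclins (27 genes).

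Clspn (claspin, an adaptor of the replication checkpoint) had the largest log2 fold change of these 82 genes. It was at 14.6, 24.6 and 24.6 CPM in the knock-outs, against 6.82, 7.09 and 3.98 CPM in the controls, a log2 fold change of 1.84 ± 0.31 (SE, adjusted p = 0.0776, edgeR). Ticrr and Recql4, which act when origins fire, were higher by 1.75 ± 0.45 and 1.44 ± 0.34, and the nuclease Dna2 by 1.02 ± 0.23. Ccne1 (cyclin E1) was at 4.18, 6.55 and 5.96 CPM in the knock-outs and 2.67, 2.36 and 2.37 CPM in the controls. Among the chromatin genes, the histone chaperone Nasp was higher by 0.78 ± 0.17 and Chaf1b, a subunit of chromatin assembly factor 1, by 1.26 ± 0.35. In nucleotide supply, Shmt1 (serine hydroxymethyltransferase) and Dut (dUTPase) were higher by 0.67 ± 0.18 and 0.60 ± 0.21. Cdk6, a G1 kinase, went the other way, at 33.4, 29.6 and 26.0 CPM in the knock-outs, against 41.4, 46.8 and 55.5 CPM in the controls (-0.69 ± 0.15, adjusted p = 0.124, edgeR). It was the 1 gene of these lists lower at an unadjusted p under 0.05, and its groups did not overlap.

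A further list of 10 genes of mitosis was higher in the knock-outs throughout, with log2 fold changes of 1.07 to 1.71 (median 1.30), and 9 of the 10 did not overlap (13.2% of all tested genes lay higher in this way). None passed the edgeR test (0 higher and 0 lower), 9 had an unadjusted p under 0.05, against 9.39% of tested genes, and DESeq2 called 8 higher, against 3.61%. Cdk1, the mitotic kinase, was at 28.7, 49.7 and 53.8 CPM in the knock-outs, against 17.7, 23.1 and 14.7 CPM in the controls, and Bub1, a spindle checkpoint kinase, was higher by 1.71 ± 0.42 (SE, adjusted p = 0.143, edgeR). The order of libraries was like that of the replication genes, with median log2 levels of 0.11, 0.84 and 0.94 in knock-out 1, 2 and 3 and -0.54, -0.12 and -1.41 in control 1, 2 and 3.

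Some markers of other cells differed between the groups, although edgeR called 0 of them higher and 0 lower. In bulk RNA fewer cells of a type and less RNA per cell cannot be told apart. All 16 stellate cell and fibroblast markers had negative log2 fold changes (median -1.40), whereas 46.2% of tested genes were above 0. In 10 of the 16 all knock-outs lay below all controls, against 11.7% of tested genes. At an unadjusted p under 0.05, 7 were lower, against 8.13% of tested genes. DESeq2 called 4 lower, against 2.7% of genes with an adjusted p, and the smallest adjusted p by edgeR was 0.239. Their summed level was 1875, 7851 and 5430 CPM in the knock-outs, against 5603, 9742 and 15810 CPM in the controls. Of 14 macrophage markers 12 had negative log2 fold changes. In 2 all knock-outs lay below all controls, against 11.7% of tested genes, and 12 overlapped between groups. DESeq2 called 2 of the 14 lower, against 2.7% of genes with an adjusted p. Their summed level was 3162, 798 and 1292 CPM in the knock-outs and 2607, 3503 and 5012 CPM in the controls. Control 3, the library lowest in replication genes, was thus highest in both lists and lowest in endothelial markers. Other libraries were ordered otherwise. Knock-out 1, the lowest knock-out in replication genes, had the lowest stellate sum of all libraries but the highest macrophage sum of the knock-outs. Control 1 lay below control 2 in both lists and also in replication genes. Neutrophil markers summed to 3892, 685 and 548 CPM in the knock-outs and 18480, 276 and 311 CPM in the controls, with control 1 alone far above the rest. Hepatocyte markers summed to 4101, 326 and 2123 CPM in the knock-outs and 620, 1703 and 2632 CPM in the controls. All 6 tested neutrophil, 8 hepatocyte and 5 cholangiocyte markers overlapped between groups, as did 11568 of all 15404 tested genes. The erythroid and platelet markers summed to 162, 52.9 and 32.9 CPM in the knock-outs, against 19.2, 14.7 and 24.1 CPM in the controls, so this list was higher in every knock-out library. Nearly all of that was Itga2b, a platelet integrin, at 158, 52.6 and 31.0 CPM in the knock-outs and 18.8, 13.8 and 21.7 CPM in the controls (log2 fold change 2.15, adjusted p = 0.185 by edgeR and 0.00559 by DESeq2), and it was highest in knock-out 1, the knock-out library lowest in replication genes. B cell markers summed to 5.24 to 10.9 CPM in the knock-outs and 7.78 to 25.2 CPM in the controls, and T and NK cell markers to 20.9 to 30.9 CPM and 20.8 to 49.2 CPM. Mpo, a neutrophil marker, was at 0 in all libraries. The part of these cells in the replication gene levels was not tested. Divided by the summed endothelial markers, the replication genes stood at 40.5, 49.8 and 57.6 CPM per 1000 CPM of those markers in knock-out 1, 2 and 3, against 33.7, 39.7 and 37.0 in control 1, 2 and 3, with every knock-out library above every control, knock-out 1 by a narrow margin over control 2. The difference was smaller on this scale, at 49.3 ± 8.52 in the knock-outs and 36.8 ± 3.04 in the controls (SD, n = 3 each, 1.34 times), against summed levels of 1288 ± 274 and 748 ± 158 CPM (1.72 times). The endothelial markers themselves differed, 11 with positive and 3 with negative log2 fold changes (median 0.355), from 0.86 (Stab2) to -1.03 (Clec4g). The ratio is therefore no measure of the endothelial share of a library.

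**Figure D5:**
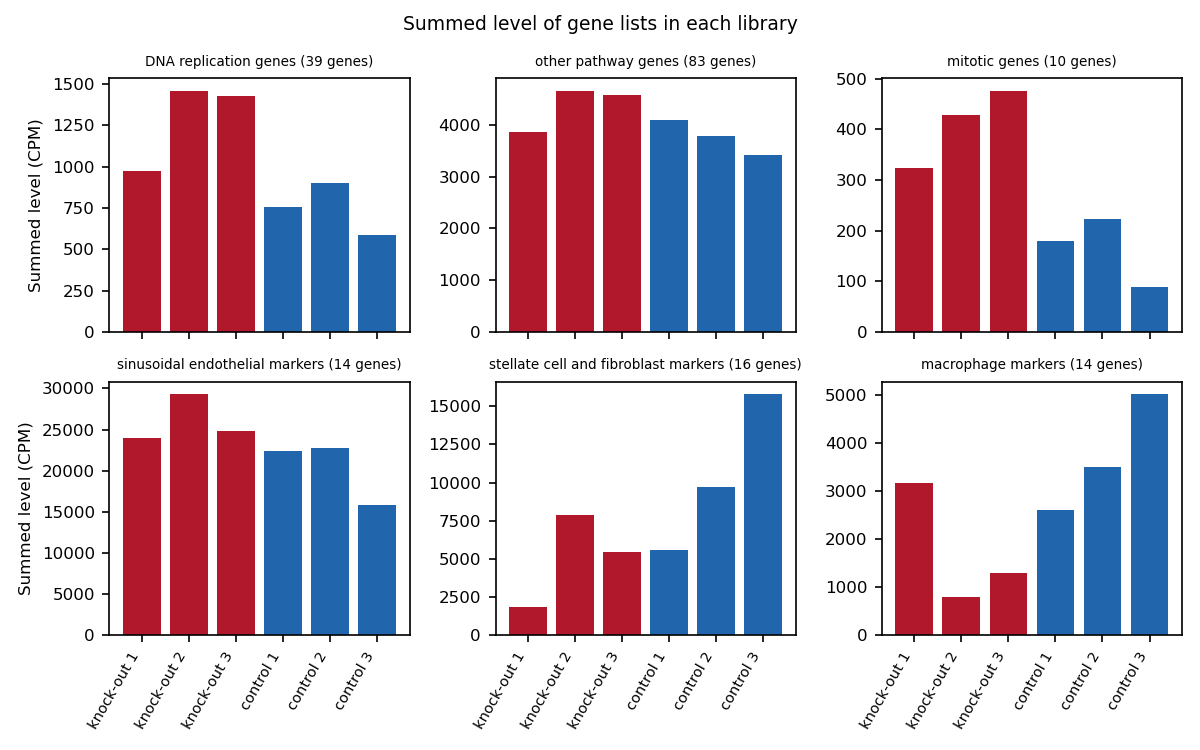
Summed normalized level (CPM) of 6 gene lists in each library, with the 3 RBPj knock-out libraries left (red) and the 3 controls right (blue). The 39 replication genes sum to 972, 1461 and 1430 CPM in the knock-outs and 754.5, 903 and 587 CPM in the controls, and the stellate cell markers reach 15810 CPM in control 3.

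Levels of some genes carry a further limit from overlapping genes. Rfc4 lies over Eif4a2 (10880 counts against 356, log2 fold change -0.48), Pole2 over Klhdc1 (-0.96), Lig1 over 6330408A02Rik (-0.03) and Tk1 over Afmid (-0.79), each on the opposite strand, and none of these partners had a positive log2 fold change. Of the partners of Orc1 and Gins2, Prpf38a was at 0.13 and Gse1 at -0.06. Whether reads of the partners entered the counts of the replication genes was not tested.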

How the data were processed

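RNA of SECs was sequenced in 6 libraries on an Illumina platform. Tools named in the submitters' notes are bcl2fastq and TopHat2 (version 2.0.13), with build mm10. How reads were counted, on which annotation and with or without strand, is not stated in the sources used here. The authors deposited whole-number counts per gene and RPKM values computed from them, and within 0.1% the RPKM equalled count over length and library total for 100% of values. Counts were used for the tests, and 27 gene names turned into dates were restored. Levels are CPM after TMM scaling, and RPKM values printed are those CPM per kilobase of the table's gene length. Genes were tested by edgeR 4.0.16 (glmQLFit with a robust prior, glmQLFTest, filterByExpr, Benjamini-Hochberg over 15404 genes, two-sided, threshold 0.05) in R 4.3.3, with group as the only term. DESeq2 1.42.0 and limma 3.58.1 (voom with quality weights), RLE or no scaling, other filters, a replicate block and leaving out each library were alternatives. The members and lists were chosen with earlier results of these data known. All 39 members are named. Every library is printed, per role group, for the member with the highest mean RPKM, the largest and the smallest change, and any untested one, and for each further list the 2 genes of smallest p were named. All 224 list entries matched, 3 of them by gene ID or synonym. The relation of replication genes to endothelial markers was added after the data were seen. The fit was tried on simulated data in which genes varied independently, so the trial does not cover shifts shared by many genes of a library. Limits of 3 counts cover counting error only.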

Additional observations from a re-analysis of the deposited data

How the results depend on the processing

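No replication gene was called higher or lower by edgeR under any alternative, including RLE or no scaling, other filters, a replicate block, leaving out each library, leaving out the ribosomal RNA rows and adding near copies (chosen after seeing the data). DESeq2 called 17 higher and limma-voom 1. Their median log2 fold change lay between 0.72 and 1.06, and the number without overlap between 24 and 36. The log2 fold change of Orc2, near 0, turned negative by DESeq2 (-0.000272) and limma-voom (-0.12) and ran from -0.066 to 0.16 when each library was left out in turn. That of Gins4 ran from -0.12 to 0.11. Leaving out single libraries gave 26 to 36 without overlap, and the lowest and highest medians came from dropping control 3 and control 2. Groups with fewer libraries are more easily apart, and the share over all tested genes is not given for the alternatives. These counts without overlap therefore cannot be set beside that of the full set of libraries.

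Over the whole table, 16 genes were called higher and 14 lower. RLE scaling gave 35 higher, no scaling 58 and 26, no filter 114 and 62, a stricter filter 47 and 26, near copies added 35 higher, DESeq2 542 and 405, and limma-voom 291 and 198. Leaving out one library gave 0 to 23 higher and 0 to 18 lower, with 0 in both directions without any library other than knock-out 1. With the replicate number as a block, 1 was higher and 2 lower, and 0 replication genes were called. Same-numbered libraries shared deviations only in part (correlations 0.19, 0.03 and 0.42), so the numbers were not taken as pairs. Knock-out 1 and knock-out 3 correlated best with the control of the same number, and knock-out 2 with control 1 (0.09). The cause of these differences was not tested. Depth limits scarce genes such as Orc1, with 219 counts in all.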
